A study of Mus musculus with 11 samples.

Results

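The gasdermins are the proteins that open pores in cell membranes during inflammatory cell death, and their 9 genes in the expression table (Gsdma, Gsdma2, Gsdma3, Gsdmc, Gsdmc2, Gsdmc3, Gsdmc4, Gsdmd and Gsdme) were examined in the skin and small intestine of mice with psoriasis-like dermatitis. The 9 genes were taken by their symbol out of 45777 genes in the table, with no threshold on their values. As a subject, the family was chosen by earlier results of these libraries, namely the fold changes and test results of imiquimod (IMQ) against control in both tissues, so the calls given here describe the data and are not independent support for a response of the family. The mice were of the BALB/c strain, female or male and 8 to 10 weeks old at treatment, and both groups were shaved. IMQ-treated mice were given 62.5 mg of Aldara cream, which holds 5% IMQ, on the back and the right ear each day. Control mice were given Vaseline, so the base of the cream differed along with IMQ, and the effects of the base and of IMQ cannot be told apart. Treatment lasted 5 to 8 days according to the sample annotation, which does not give the days of each mouse. IMQ is a ligand of the endosomal receptor TLR7. Bulk RNA sequencing covered the skin with 3 libraries from control and 3 from IMQ-treated mice (replicates 1 to 6), and the small intestine with 3 and 2 (replicates 7 to 11).

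Total counts ranged from 45681955 to 52492181 in control skin, from 44995414 to 47698087 in IMQ-treated skin, from 48035631 to 58526384 in control small intestine and from 48962832 to 56074304 in IMQ-treated small intestine. Basal keratinocyte markers summed to 2650.0 to 6392 FPKM (fragments scaled by transcript length and library size) in the skin libraries and to 18.75 to 31.2 FPKM in those of the small intestine. Enterocyte markers summed to at least 11500 FPKM in each small intestine library, to 237 FPKM in skin control 2 and to at most 5.97 FPKM in the other skin libraries. Skin control 2 held transcripts specific to the small intestine. Over 96 such genes their median level was 0.781% of that in the intestinal controls. This median was 0 in each of the other skin libraries. Their gene sets left out transcripts seen in any further skin library except skin control 2, so carry-over shared by several libraries was not measured. Enterocyte markers summed to 5.28 and 5.97 FPKM in IMQ 4 and 5, against 0.0744 to 0.194 FPKM in controls 1 and 3 and IMQ 6. At the share of 0.781%, carried-over RNA would amount to 12.0% of the level of Gsdmc3 in skin control 2, 9.68% of Gsdmc2 and 9.08% of Gsdmd. It would amount to 2.90% of Gsdmc4, 2.86% of Gsdme and under 0.3% of each of the others. The same library had hair follicle inner root sheath markers at 36.7 FPKM, against 662 and 1049 FPKM in the other skin controls and 20.9 to 23.8 FPKM in IMQ-treated skin. Results for the skin are therefore also given without it where a call of a gene named here changes. The sources do not state which libraries came from one mouse, so p-values measure only the spread between these libraries. In bulk tissue, fewer cells of a type and less RNA per cell cannot be told apart.

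Gasdermins are made as inactive proteins in which a carboxy-terminal part holds back an amino-terminal part. When a protease cuts between them, the amino-terminal part inserts into the membrane and forms a pore through which small proteins such as interleukin (IL)-1beta leave, and the cell may swell and burst, a form of death called pyroptosis. Gsdmd is cut by caspase-1 and caspase-11 (the product of mouse Casp4) downstream of inflammasomes, and GSDMC by caspase-8. Gsdma genes are known for expression in the epidermis and hair follicle, where mutations of Gsdma3 cause hair loss in mice. Gsdmc2, Gsdmc3 and Gsdmc4 are known as genes of the intestinal epithelium that type 2 cytokines induce.

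The genes lie in 2 clusters and at 2 single loci of the mouse genome (RefSeq positions, build GRCm38.p6, the same assembly as mm10). On chromosome 11, Gsdma3 (chr11:98626349-98638801), Gsdma2 (chr11:98646743-98657964) and Gsdma (chr11:98664337-98677708) stand side by side on the plus strand. On chromosome 15, Gsdmc (chr15:63775971-63808739), Gsdmc2 (chr15:63824328-63845193), Gsdmc3 (chr15:63857605-63878579) and Gsdmc4 (chr15:63891140-63912319) stand side by side on the minus strand. Gsdmd lies farther along the same chromosome on the plus strand (chr15:75862144-75867408), and Gsdme lies on the minus strand of chromosome 6 (chr6:50207401-50263857). The copies within a cluster are alike in sequence. The coding sequences of Gsdmc2 and Gsdmc3 were identical at 97.1% of the positions of their alignment, with gaps counted as differences, and each was 93.0% identical to that of Gsdmc4. Gsdmc was 82.8% to 84.0% identical to these 3 copies. Gsdma was 89.8% identical to Gsdma2 and 85.8% identical to Gsdma3. Gsdmd and Gsdme were 49.7% identical to each other.

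The start of the coding sequence is shown because it shows how close the copies are and why reads can match several of them. Each line gives the first 60 coding bases of the GENCODE M21 transcript, 5′ to 3′, with capitals at the bases that differ from Gsdma in the first 3 lines and from Gsdmc2 in the last 4. Gsdmc2, Gsdmc3 and Gsdmc4 were identical over this stretch, Gsdmc differed from them at 7 bases, and Gsdma2 and Gsdma3 differed from Gsdma at 2 and 5 bases.
Gsdma: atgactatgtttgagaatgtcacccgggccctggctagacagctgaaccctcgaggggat
Gsdma2: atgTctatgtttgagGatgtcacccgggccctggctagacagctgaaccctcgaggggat
Gsdma3: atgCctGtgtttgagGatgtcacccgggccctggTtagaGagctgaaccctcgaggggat
Gsdmc2: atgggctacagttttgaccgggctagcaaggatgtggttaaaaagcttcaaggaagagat
Gsdmc3: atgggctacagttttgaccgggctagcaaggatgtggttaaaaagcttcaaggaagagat
Gsdmc4: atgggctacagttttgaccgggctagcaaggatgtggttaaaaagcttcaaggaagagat
Gsdmc: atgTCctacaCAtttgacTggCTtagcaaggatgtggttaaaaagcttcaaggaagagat

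Elsewhere the copies can be told apart. The next lines give coding bases 819 to 878 of Gsdmc2 and Gsdmc3, counted from 1 at the A of the start codon, a stretch in which they differ at 11 bases, shown in capitals.
Gsdmc2: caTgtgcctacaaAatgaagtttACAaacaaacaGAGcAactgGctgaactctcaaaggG
Gsdmc3: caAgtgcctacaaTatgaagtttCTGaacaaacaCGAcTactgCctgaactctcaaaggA

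Of all 100-base windows of the transcripts, the read length of the study, 28.7% of those of Gsdmc2, 30.5% of those of Gsdmc3 and 20.2% of those of Gsdmc4 occurred without a difference in another member, against 7.33% of those of Gsdmc. The shares were 1.83% for Gsdma and 3.05% for Gsdma2, and no window of Gsdma3, Gsdmd or Gsdme occurred in another member. No window of the 9 genes occurred in a gene outside the family. Reads were sequenced in pairs and a window stands for a single read, so these are not the shares of read pairs that match several genes. How the authors counted reads that match several genes is not given in the sources used here, so the split of counts among the 4 Gsdmc genes is uncertain. Of the windows of Gsdmc2, 120 of 2063 also occurred in Gsdmc, and of those of Gsdmc4, 85 of 1986. In control skin Gsdmc had a mean of 8.11 FPKM, against 0.475 for Gsdmc2 and 0.480 for Gsdmc4. The part of reads from Gsdmc in the values of these copies was not tested. The sum over the 4 Gsdmc genes is given beside them, and it does not depend on the split if each read was counted once.

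RefSeq promoter windows matched 3 of the 9 genes, Gsdmc3, Gsdma3 and Gsdme. The 250 bases before the start site that the RefSeq table uses for Gsdmc3 (chr15:63878559-63878808, minus strand, GRCm38.p6) are shown because this gene had the largest fold change of the family in the skin. That site lies 21 bases inside the gene's outer boundary given above, so the last 21 bases shown belong to the gene. The site used for Gsdme lies 2088 bases inside its boundary, and all 250 bases of its window are within the gene, whereas the window of Gsdma3 ends at its boundary.
Gsdmc3 promoter: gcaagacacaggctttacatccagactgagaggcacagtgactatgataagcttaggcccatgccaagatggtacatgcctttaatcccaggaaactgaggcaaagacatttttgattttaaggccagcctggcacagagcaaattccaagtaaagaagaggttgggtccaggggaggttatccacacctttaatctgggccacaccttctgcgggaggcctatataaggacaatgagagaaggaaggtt
Both strands were searched for TATAAA, which occurred in 12.4% of 32851 promoter windows, for the NF-kappaB type motif (7.25%), for an IRF type motif (2.98%), and for STAT type and STAT6 type motifs (7.02% and 5.85%). The windows of Gsdmc3 and Gsdme held none of the 5. That of Gsdma3 held an NF-kappaB type match at bases -197 to -188 from the start site and an IRF type match at -233 to -224, and none of the other motifs.

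In control mice the skin and the small intestine used different gasdermins. Levels are given in FPKM, which allows genes of different length to be compared. In control skin, Gsdma had the highest mean level at 45.6 ± 14.8 FPKM (SD, n = 3), with 54.7, 53.5 and 28.5 FPKM in replicates 1 to 3. Gsdmd (10.0 ± 1.03 FPKM), Gsdma3 (9.39 ± 3.62) and Gsdmc (8.11 ± 5.06) followed, and their ranges overlapped each other but not that of Gsdma. Gsdma2 (1.5 ± 0.92 FPKM), Gsdme (1.27 ± 0.40), Gsdmc4 (0.480 ± 0.34) and Gsdmc2 (0.475 ± 0.23) formed a lower tier, in which the range of Gsdma2 overlapped all the others. Gsdmc3 was lowest at 0.0821 ± 0.060 FPKM.

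In control small intestine, Gsdmd stood far above the rest at 130.4 ± 27.1 FPKM (n = 3). Gsdme (6.19 ± 2.29 FPKM) and Gsdmc2 (4.41 ± 1.75) came next with overlapping ranges, then Gsdmc4 (1.11 ± 0.22), Gsdmc3 (0.956 ± 0.39) and Gsdma2 (0.636 ± 0.32), whose ranges also overlapped. Gsdma (0.177 ± 0.072 FPKM) and Gsdmc (0.0543 ± 0.034) were near the bottom, with 14 to 31 and 3 to 13 counts per library. Gsdma3 had 0 counts in all 5 small intestine libraries, which allows up to 3 counts in each as far as counting error goes. The order of the 9 genes in each of the 4 groups was the same with TPM in place of FPKM.

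The control groups of the 2 tissues were compared over 18108 genes, those without a zero count in any of the 11 libraries, which left out Gsdmc and Gsdma3. Without this filter, both were called higher in the skin (adjusted p = 2.24e-05 and 2.93e-05). Of the 7 members tested with edgeR's quasi-likelihood test, 1 was higher in the skin and 5 were higher in the small intestine at a Benjamini-Hochberg adjusted p under 0.05, where 28.8% and 28.2% of all genes tested were called in these directions. Gsdma was 204-fold higher in the skin (log2 fold change 7.67 ± 0.51 SE, adjusted p = 3.68e-07). Gsdmd was 17.6-fold higher in the small intestine (log2 -4.14 ± 0.23, adjusted p = 1.15e-07), Gsdmc3 14.5-fold, Gsdmc2 9.23-fold, Gsdme 6.56-fold and Gsdmc4 2.95-fold (adjusted p = 0.0194). The call of Gsdmc4 was lost without skin control 2 (adjusted p = 0.0565), skin control 3 (0.0656) or small intestine control 8 (0.0517). Gsdma2 differed by 0.82 ± 0.53 on the log2 scale and did not pass the test (adjusted p = 0.211), but it passed without skin control 3, its lowest skin library (1.27, adjusted p = 0.0171). The summed counts of the Gsdmc cluster differed by -0.02 ± 0.53 (adjusted p = 0.978 in edgeR), but the genes that made up the sum differed. Gsdmc provided 88.0% to 88.9% of the cluster's FPKM in control skin and 0.450% to 1.03% in control small intestine, where Gsdmc2 provided 63.2% to 70.4%.

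**Figure D1:**
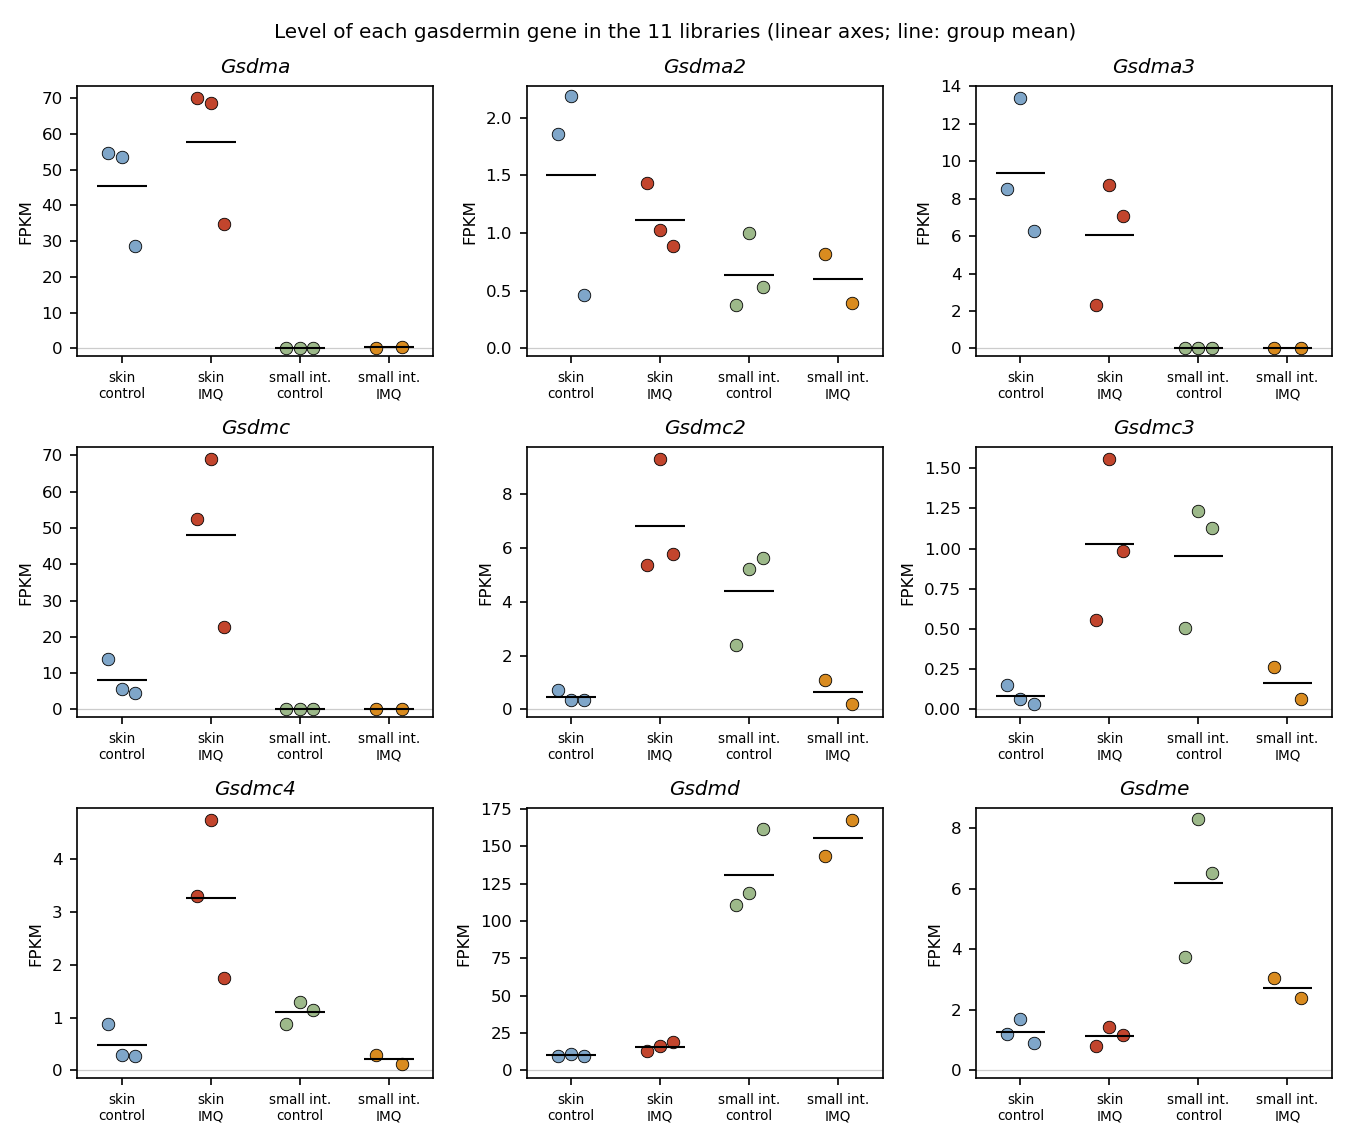
Level of each gasdermin gene (FPKM, linear axis, a separate scale for each gene) in the 4 groups, each point a library and each line a group mean. The 4 Gsdmc genes were higher in each IMQ skin library than in any skin control, while Gsdmc2, Gsdmc3, Gsdmc4 and Gsdme were lower in both IMQ libraries of the small intestine than in its 3 controls.

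In the skin, the 4 genes of the Gsdmc cluster rose with IMQ and none of the other 5 members was called. Of the 9 members, all tested, 4 were called higher and 0 lower by edgeR, at the same threshold on the adjusted p, where 4.05% of the 20512 genes tested were called higher and 2.69% lower. The groups did not overlap for 5 members, all higher with IMQ, against 15.1% of all genes higher and 13.3% lower. The median log2 fold change was 0.69 over the 9 members and -0.01 over all genes tested. These contrasts were known when the family was selected, so nothing is read from the difference.

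Gsdmc, the cluster's main gene in the skin, had normalized counts (brought to a common library size within each tissue) of 1733, 772 and 573 in control replicates 1 to 3 and of 7160, 9025 and 2909.7 in IMQ replicates 4 to 6. The lowest IMQ library lay above the highest control, but the libraries spread widely within each group. Gsdmc was 6.20-fold higher with IMQ (log2 2.63 ± 0.55 SE, adjusted p = 0.0392), which brought its mean level from 8.11 to 48.1 FPKM, in a range that overlapped that of Gsdma in the same libraries.

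Gsdmc2 had 134, 67.6 and 60.1 normalized counts in the control libraries and 730.0, 1355 and 844 in the IMQ libraries. All IMQ libraries were far above the highest control. The fold change was 11.2 (log2 3.48 ± 0.40, adjusted p = 0.00677), the smallest p of the family in the skin. Gsdmc3 rose from 25.3, 12.0 and 6.10 to 103, 267 and 166 normalized counts, and its fold change of 12.2 (log2 3.61 ± 0.59, adjusted p = 0.0194) started from very few reads. Gsdmc4 had 106, 39.3 and 32.3 normalized counts in control skin and 437, 601 and 216 in IMQ-treated skin, without overlap, a 7.04-fold difference (log2 2.82 ± 0.57, adjusted p = 0.0364). For all 4 genes, control replicate 1 was the highest control and IMQ replicate 5 the highest IMQ library.

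The counts summed over the cluster rose 6.69-fold (log2 2.74 ± 0.52, adjusted p = 0.0301 in edgeR). This sum does not depend on how shared reads were split if each read was counted once, which is not known. Gsdmc provided 88.0% to 88.9% of the cluster's FPKM in control skin and 72.9% to 85.0% with IMQ, so the sum mostly follows Gsdmc. Of the 4 genes, Gsdmc2 alone was called whichever of the 6 libraries was left out (log2 3.17 to 3.93, adjusted p = 0.0120 to 0.0272). Gsdmc3 was called in 4 of 6 such fits, Gsdmc4 in 2 and Gsdmc in 1, with log2 fold changes of at least 2.30 in each. Without skin control 2, the skin library with the most intestinal transcripts, the values in edgeR were 2.47 for Gsdmc (adjusted p = 0.0692), 2.60 for Gsdmc4 (0.0577) and 2.57 for the cluster (0.0528). None of these was called, while Gsdmc2 and Gsdmc3 were still called. Carried-over RNA would amount to 0.00734% of the level of Gsdmc in skin control 2.

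Gsdmd, the substrate of the inflammatory caspases, had 883, 1129.7 and 892 normalized counts in control skin and 1314, 1578.5 and 1804 in IMQ-treated skin. The groups did not overlap and the spread within each was small. The 1.62-fold difference (log2 0.69 ± 0.17) did not pass the test with all libraries (adjusted p = 0.0566), but it passed without skin control 2 (0.82, adjusted p = 0.0280), and with the Wald test of DESeq2 (0.69, adjusted p = 0.00598).

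The Gsdma cluster, which dominates in normal skin, did not pass the test in any member. Gsdma had 7431, 7353 and 3601 normalized counts in control skin and 10248, 9106 and 4439.9 in IMQ-treated skin, so that IMQ replicate 6 lay among the controls and the groups overlapped (log2 0.37 ± 0.38, adjusted p = 0.615). The 8 markers of differentiated keratinocytes summed to 8253, 8437 and 3196 FPKM in the controls and 8338, 6869 and 3672 FPKM with IMQ, and were thus lowest in the same libraries, control 3 and IMQ 6. Within this list the genes moved unequally. The keratins Krt77 (log2 -8.08 ± 0.69, adjusted p = 0.00291 in edgeR) and Krt2 (-7.59 ± 0.86, adjusted p = 0.00641) fell with IMQ, while the other 6 were not called. Of these 6, Flg2 was below the controls in each IMQ library (-2.525 ± 0.69, adjusted p = 0.0801). Krt1, Krt10, Flg, Lor and Ivl overlapped between the groups. The part of these markers in the values of Gsdma was not tested. Gsdma3, the gene known from hair loss mutants, had 981, 1649.9 and 714 normalized counts in control skin and 293, 1058 and 833 with IMQ, where IMQ replicate 4 alone lay below all others (log2 -0.61 ± 0.49, adjusted p = 0.511). Gsdma2 had 163, 206 and 41.8 against 114, 94.6 and 79.5 normalized counts (log2 -0.51 ± 0.54, adjusted p = 0.629). Gsdme stayed between 120.3 and 205 normalized counts in all 6 libraries, with a difference of 0.00 ± 0.27 on the log2 scale (adjusted p = 0.999).

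Other cell type markers moved with IMQ in the skin beside the Gsdmc genes. Hyperproliferative keratinocyte markers (Krt6a, Krt6b, Krt16, Krt17, Sprr1b, S100a8 and S100a9) summed to 653 to 1002 FPKM in control and 9872 to 15170 FPKM in IMQ-treated skin. Of these, 6 of 7 genes were called higher (5 without skin control 2, where Sprr1b was not called). The proliferation genes Mki67 and Top2a were not higher (log2 -0.55 ± 0.37 and -0.52 ± 0.39, neither called). Without skin control 2, edgeR called both lower (-0.89 ± 0.17 and -0.88 ± 0.16). Macrophage markers summed to 236 to 376 against 652 to 879 FPKM (5 of 8 higher) and neutrophil markers to 3.80 to 5.78 against 32.4 to 39.99 FPKM (4 of 5 tested higher). Eosinophil markers summed to 13.9 to 33.2 against 3.33 to 6.02 FPKM, a fall carried by Ear2 (log2 -3.25 ± 0.45, adjusted p = 0.0116), the one called of 3 tested, whereas Ear1, which was not tested because of zeros, had means of 3.23 and 71.8 normalized counts. Some markers of the hair follicle inner root sheath and the sebaceous gland fell. Of the former, 2 of 6 tested (Krt28 and Gata3) were called lower, and 6 of 6 without skin control 2. That control had these markers at 36.7 FPKM, near the 20.9 to 23.8 FPKM of IMQ-treated skin. It was set aside partly for this low level, so the second count is no further evidence of a fall. Of the sebaceous gland markers, which summed to 276.5 to 490.5 against 144.4 to 279.8 FPKM, Mc5r (-1.44 ± 0.24) and Awat2 (-2.28 ± 0.33) were called lower of 7. The part of all these cells in the rise of the Gsdmc genes was not tested.

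**Figure D2:**
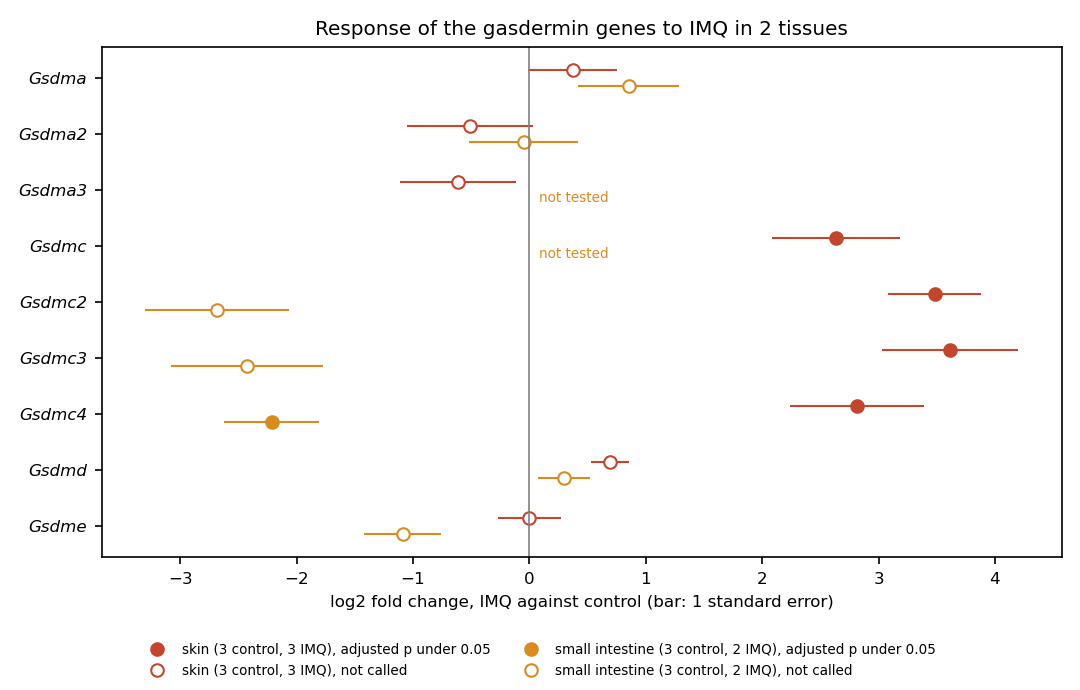
Log2 fold change of each gasdermin gene with IMQ against control (bars, 1 standard error) in the skin and the small intestine, with filled points for genes that edgeR called at an adjusted p under 0.05. The Gsdmc genes lie between 2.63 and 3.61 in the skin and the 3 tested lie between -2.68 and -2.21 in the small intestine, whereas the other members lie nearer to 0.

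In the small intestine the Gsdmc genes were lower with IMQ, the reverse of the skin, although Gsdmc4 alone passed the test. Of the 7 members tested, 0 were called higher and 1 lower, where 2.77% of the 19965 genes tested were called higher and 0.17% lower. The groups did not overlap for 4 of the 7, all lower with IMQ, against 15.1% of all genes higher and 13.9% lower. The median log2 fold change was -1.09 over the 7 members and -0.02 over all genes tested. As in the skin, nothing is read from these shares, and the IMQ group had 2 libraries only.

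Gsdmc4 had 108, 158 and 148 normalized counts in control replicates 7 to 9 and 39.9 and 18.85 in IMQ replicates 10 and 11. Both IMQ libraries were below the lowest control, and the 4.64-fold decrease passed the test (log2 -2.21 ± 0.41, adjusted p = 0.0362). The call depended on the full set of libraries, since it was made in 1 of 5 fits that left out a library (log2 -2.86 to -1.79, adjusted p = 0.0294 to 0.179), that without control 7. It was also lost without control 8, without control 9, without IMQ 10 and without IMQ 11.

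Gsdmc2, the main Gsdmc gene of this tissue, had 333, 732 and 852 normalized counts in the controls and 155 and 42.1 with IMQ. The groups did not overlap, control replicate 7 was the lowest control, and IMQ replicate 11 was lower than IMQ replicate 10. The log2 difference was -2.68 ± 0.62 and did not pass the test (adjusted p = 0.0837). Gsdmc3 had the same order of libraries, with 83.5, 209 and 211 normalized counts in the controls and 49.0 and 12.2 with IMQ (log2 -2.43 ± 0.66, adjusted p = 0.138). The cluster sum gave -2.58 ± 0.57 (adjusted p = 0.0720). Gsdmc itself had 3, 9 and 13 counts in the controls and 0 in both IMQ libraries. It was left out of the test because of the zeros and was not called by edgeR when the filter was dropped (adjusted p = 0.211). The mean of the controls was 2.44-fold above a floor of 3 counts per library. Control replicate 7 itself had 3 counts, so this ratio is not a lower bound of the decrease.

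Gsdme had 484, 1058 and 890.3 normalized counts in control small intestine and 423 and 339 with IMQ. The 2 IMQ libraries lay below the controls, the nearer only just below control replicate 7, and the difference did not pass the test (log2 -1.09 ± 0.33, adjusted p = 0.195). DESeq2 called Gsdmc2 (adjusted p = 0.0161), Gsdmc3 (0.00164) and Gsdme (0.0260) lower in addition to Gsdmc4. The same 4 genes were called by edgeR without control replicate 7, which was the lowest control for each of them, at adjusted p = 0.0265 for Gsdmc2, 0.0488 for Gsdmc3, 0.0294 for Gsdmc4 and 0.0134 for Gsdme.

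Gsdmd, by far the most abundant gasdermin of this tissue, had 110.9, 118.9 and 161 FPKM in the controls and 144 and 168 FPKM with IMQ. The groups overlapped (log2 0.30 ± 0.23, adjusted p = 0.707). Gsdma had 33.6, 14.1 and 24.0 normalized counts against 33.6 and 53.2 (log2 0.85 ± 0.43, adjusted p = 0.516), and Gsdma2 had 39.05, 91.7 and 54.5 against 79.0 and 39.9 (log2 -0.05 ± 0.47, adjusted p = 0.987), both at few reads, which limits what was detectable. Gsdma3 stayed at 0 counts.

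Some cell type markers shifted in the same libraries. Enterocyte markers summed to 11500 to 17750 FPKM in control and 23300 to 26670 FPKM in IMQ-treated small intestine, a difference carried by Apoa4 (log2 1.83 ± 0.58) and Fabp1 (1.31 ± 0.46) in particular. None of the 9 genes was called, 5 of them were lower with IMQ, and their median log2 fold change was -0.04. Markers of secretory epithelium summed to 13900 to 16530 against 10490 to 11790 FPKM (1 of 8, Agr2, called lower), and those of stem and crypt cells to 345 to 413 against 251.0 to 282 FPKM (0 of 7 called). Tuft cell markers overlapped between the groups at 4.58 to 8.89 and 5.51 to 6.83 FPKM. Macrophage markers were higher, at 137 to 205 FPKM in the controls and 734 to 814 FPKM with IMQ (5 of 8 called). Eosinophil markers summed to 2.24 to 4.31 against 5.43 to 5.64 FPKM. Of 5 tested, Ear2 alone was called, and higher (log2 2.13 ± 0.32), the reverse of its change in the skin. Prg2 (0.92 ± 0.435, at few counts), Siglecf (-0.39 ± 0.43), Ccr3 (-0.30 ± 0.38) and Il5ra (-0.13 ± 0.31) were not called. Epx, not tested because of zeros, had means of 12.0 and 0 normalized counts. By flow cytometry, the paper found fewer eosinophils in the small intestine with IMQ. By quantitative PCR of this tissue, it found lower Ccr3 and higher Prg2, and it reported more of the Epx protein there. The part of all these cells in the lower level of the Gsdmc genes was not tested.

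The difference between the responses of the 2 tissues was tested by an interaction term fitted to the 11 libraries together. This term does not test whether the directions are opposite. Of the 7 members tested, 3 had a response that was more positive in the skin at an adjusted p under 0.05, where 0.856% of 18108 genes did. The difference, small intestine minus skin, was -6.16 ± 0.82 on the log2 scale for Gsdmc2 (adjusted p = 0.00483), -6.04 ± 0.97 for Gsdmc3 (0.0101) and -5.03 ± 0.80 for Gsdmc4 (0.00978). For the cluster sum it was -5.32 ± 0.88 (adjusted p = 0.0114). The interaction combines the 2 comparisons above and is no further evidence beside them. Gsdmc2 was called whichever of the 11 libraries was left out (log2 -7.38 to -5.54), and Gsdmc3 and Gsdmc4 in 10 of 11 fits, the exception being that without small intestine IMQ 11 (adjusted p = 0.0525 and 0.0621). No such difference was called for Gsdmc, which entered the test when the filter on zeros was dropped (adjusted p = 0.116), or for Gsdma (0.49 ± 0.66), Gsdma2 (0.47 ± 0.79), Gsdmd (-0.39 ± 0.30) or Gsdme (-1.08 ± 0.45, adjusted p = 0.256).

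**Figure D3:**
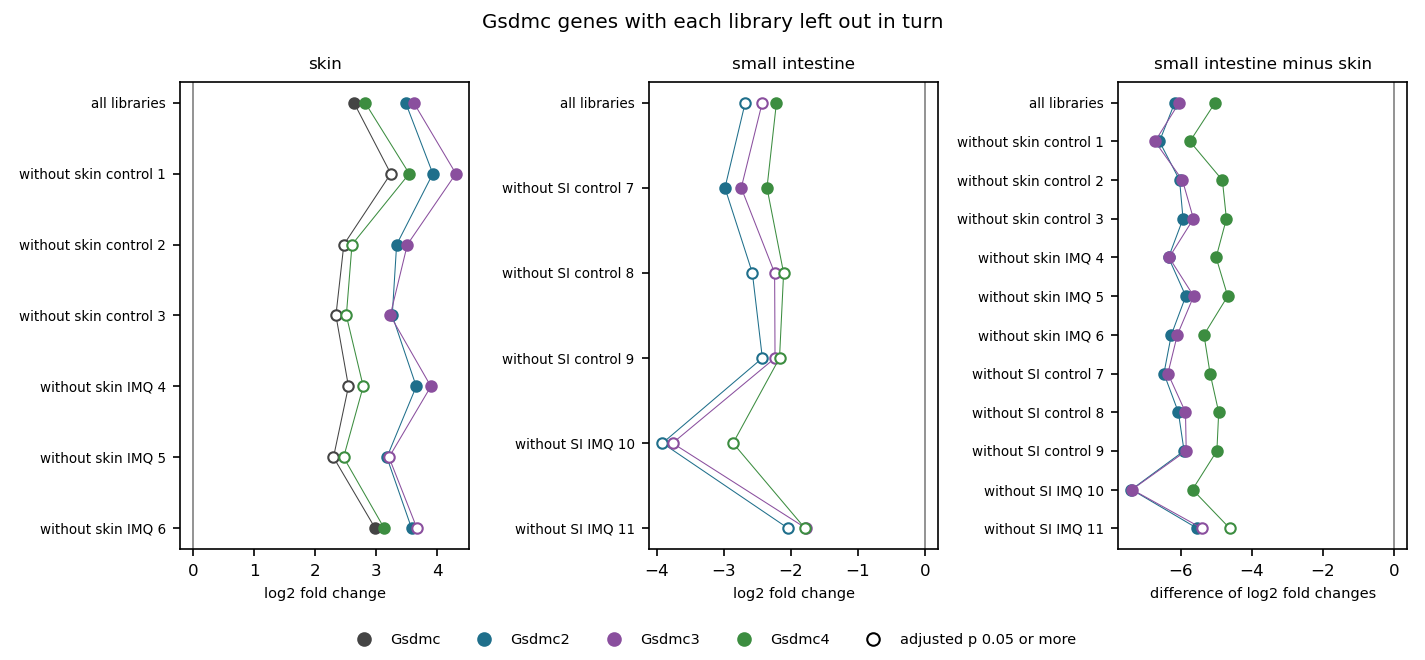
Log2 fold change of the Gsdmc genes with IMQ in the skin (left) and the small intestine (middle) and the difference between the tissues (right), with all libraries (top line) and with each library left out in turn, open points marking an adjusted p of 0.05 or more in edgeR's quasi-likelihood test. No point crosses 0, and Gsdmc2 has filled points on every line in the skin and for the difference.

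The balance of the copies within each cluster differed more between the tissues than between treatments. In control skin, Gsdmc provided 88.0% to 88.9% of the summed FPKM of the Gsdmc cluster and Gsdmc2 provided 4.70% to 6.29%. In IMQ-treated skin the share of Gsdmc was 85.0%, 81.5% and 72.9% in replicates 4 to 6 and that of Gsdmc2 was 8.70% to 18.4%, without overlap with the controls for either. The share of Gsdmc4 stayed at 4.61% to 5.59% in the controls and 5.35% to 5.61% with IMQ. Over all 6 skin libraries, Gsdmc4 was at 5.18% to 7.66% of the FPKM of Gsdmc, whereas Gsdmc2 ranged from 5.29% to 25.3% of it. By contrast, Gsdmc4 in the small intestine reached 0.875 to 1.305 FPKM in the controls with Gsdmc at most 0.0826 FPKM. Gsdmc3 was at 10.3% to 20.3% of the FPKM of Gsdmc2 in the skin libraries and at 20.1% to 31.6% in those of the small intestine, ranges that overlap slightly.

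Gsdmc2 in the small intestine provided 63.2% to 70.4% of the cluster in the controls and 65.7% and 51.4% in IMQ replicates 10 and 11, so its share overlapped between treatments. In the Gsdma cluster, Gsdma provided 77.5% to 84.0% of the summed FPKM in control skin and 81.3% to 94.9% in IMQ-treated skin. Gsdma2 provided at most 3.16% in any skin library, and 52.0% to 91.3% in the small intestine, where the cluster summed to 0.589 to 1.09 FPKM.

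**Figure D4:**
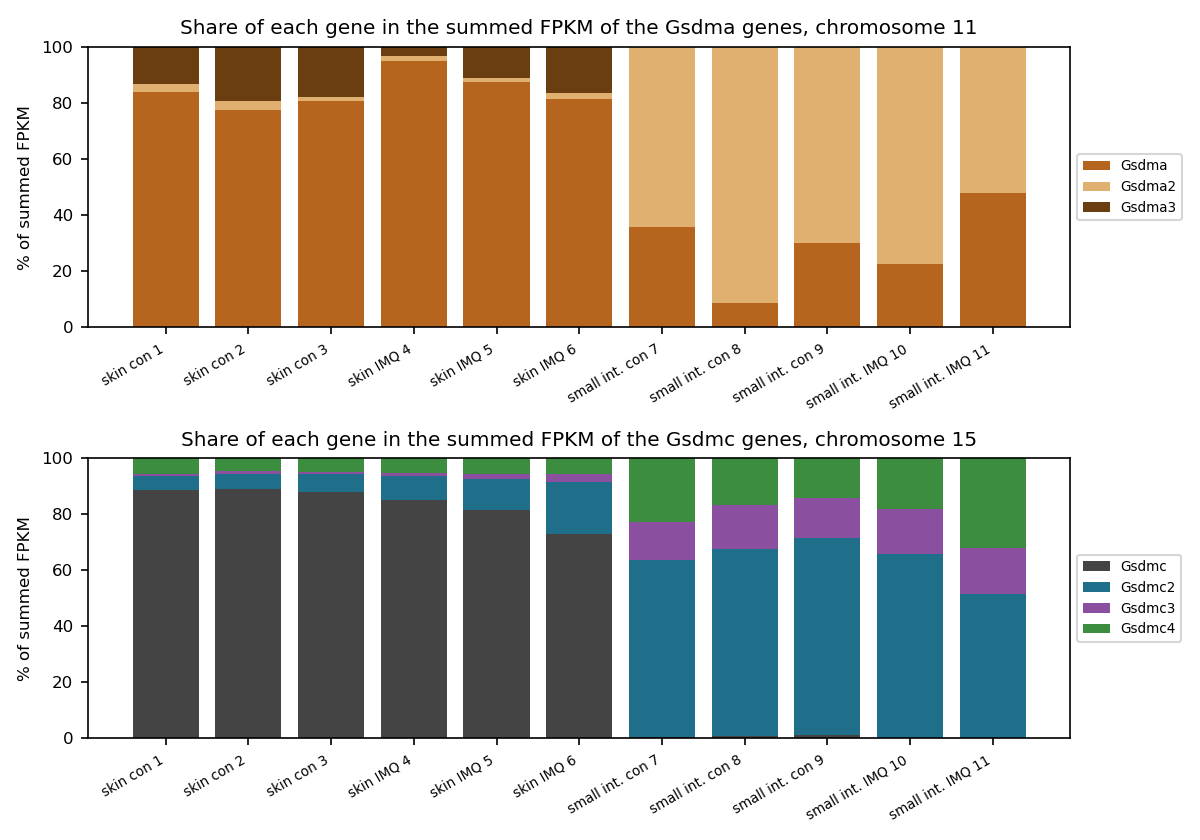
Share of each gene (percent of summed FPKM) in the Gsdma cluster (top) and the Gsdmc cluster (bottom) in each of the 11 libraries. Gsdmc fills 72.9% to 88.9% of the lower bars in the skin and at most 1.03% in the small intestine, where Gsdmc2 is the largest block in each library.

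The genes that act with gasdermins were described by lists compiled with earlier results of these data known. Of the proteases that cut gasdermins, 3 of 8 rose in the skin. Casp1, which cuts Gsdmd and pro-IL-1beta, went from 1288 ± 152 to 2338 ± 181 normalized counts (log2 0.86 ± 0.13 SE, adjusted p = 0.0143), Casp8 from 1664 ± 206 to 2441 ± 91.3 (log2 0.55 ± 0.12, adjusted p = 0.0442), and Ctsg, a neutrophil and mast cell protease, was also called at low counts (log2 1.63 ± 0.27, adjusted p = 0.0199). Casp4 had a log2 difference of 1.202 ± 0.34 in the skin (adjusted p = 0.0884), and was called without skin control 2 (1.61 ± 0.27, adjusted p = 0.0199), which made 4 of 8. In the small intestine, 1 of 6 tested was lower, Casp4, from 1757 ± 164 to 1025 ± 91.6 normalized counts (log2 -0.78 ± 0.14, adjusted p = 0.0342), and Casp1 had a log2 difference of -0.54 ± 0.12 (adjusted p = 0.0849). Casp1 and Casp4 were each below the range of the controls in both IMQ libraries of the small intestine, as were 13.9% of all genes tested.

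Of the inflammasome sensors and their adaptor, 3 of 11 tested rose in the skin and 1 of 12 in the small intestine, and none fell. In the skin these were Nlrp3 (log2 1.36 ± 0.27, adjusted p = 0.0336), the DNA sensor Aim2 (1.10 ± 0.23, adjusted p = 0.0366) and the adaptor Pycard (0.59 ± 0.12, adjusted p = 0.0390). Without skin control 2, Nlrc4 (1.74 ± 0.36, adjusted p = 0.0338) and Naip2 (1.21 ± 0.24, adjusted p = 0.0289) were called as well, which made 5 of 11. The gene of the small intestine was Nlrp1b (1.64 ± 0.27, adjusted p = 0.0212), while Nlrp6 and Nlrc4, both abundant in control small intestine, had log2 differences of 0.01 ± 0.20 and 0.03 ± 0.13. Of the cargo and rupture genes, Il1b alone was called among 4 in each tissue. It rose 2.84 ± 0.28 on the log2 scale in the skin (adjusted p = 0.00432) and 3.16 ± 0.38 in the small intestine (adjusted p = 0.00519), so this cargo gene was higher in both tissues, whereas Gsdmc2, Gsdmc3 and Gsdmc4 responded differently in them by the interaction test above. Ninj1, which ruptures the membrane after pore formation, had differences of 0.15 ± 0.19 and 0.07 ± 0.27.

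**Figure D5:**
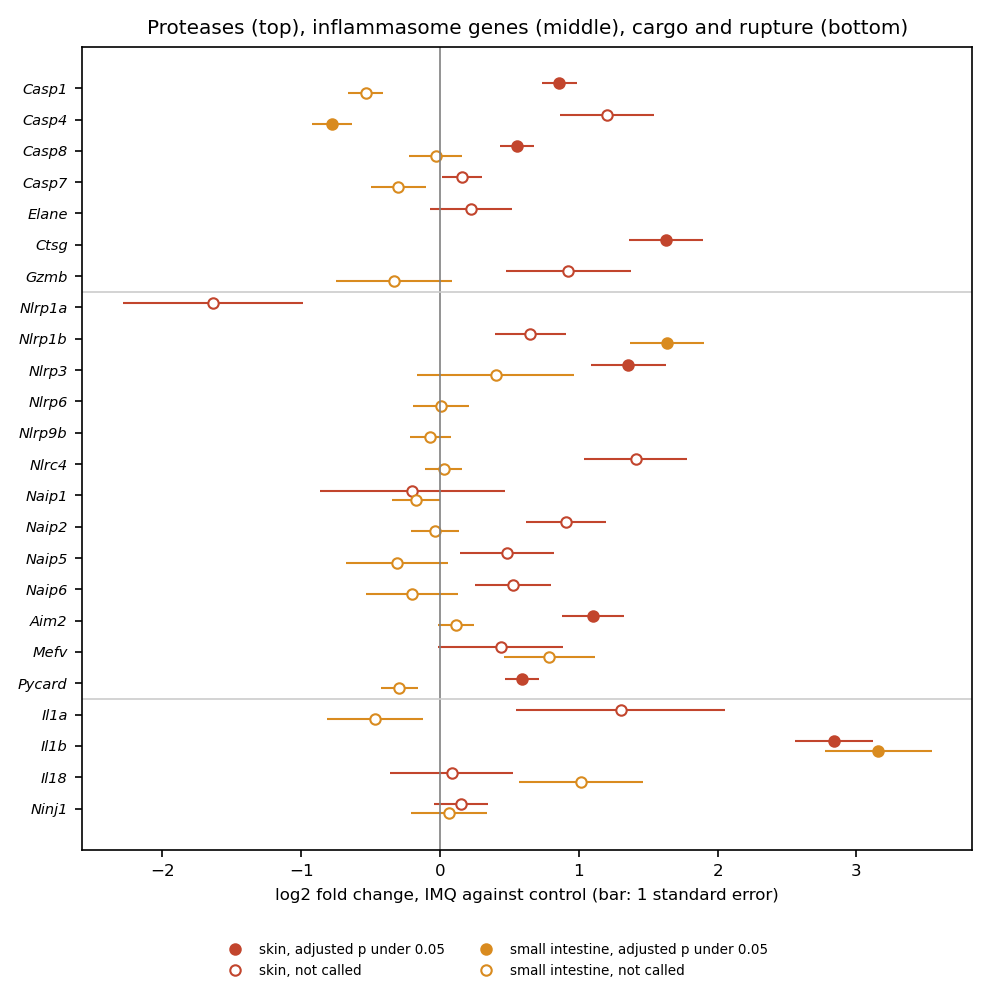
Log2 fold change with IMQ against control (bars, 1 standard error) of 7 proteases that cut gasdermins, inflammasome genes, and cargo and rupture genes in the skin and the small intestine, filled points marking genes that edgeR called at an adjusted p under 0.05. Il1b lies at 2.84 and 3.16 in the 2 tissues, whereas Casp1 is called higher in the skin and lies at -0.54 in the small intestine without passing the test.

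None of the 11 regulators and membrane repair genes, among them Irf2, which drives Gsdmd, the palmitoyl transferases Zdhhc5 and Zdhhc9 and the ESCRT-III genes Chmp2a to Chmp4c, was called in either tissue with edgeR's quasi-likelihood test. The smallest unadjusted p belonged to Irf2 in the skin (log2 0.28 ± 0.14, adjusted p = 0.288) and to Chmp2b in the small intestine (-0.30 ± 0.15, adjusted p = 0.505), and 0 of the 11 had an unadjusted p under 0.05 in either.

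Of the type 2 cytokine axis, 5 of 13 genes tested rose and 1 fell in the skin. The epithelial cytokine Tslp rose from 138 ± 35.5 to 1024 ± 273 normalized counts (log2 2.89 ± 0.29, adjusted p = 0.00445), Il33 by 2.04 ± 0.29 and the receptor Il4ra by 0.90 ± 0.16 on the log2 scale. The cornified envelope genes Sprr2a3 (4.31 ± 0.48) and Sprr2b (11.91 ± 0.86) rose most, Sprr2b from a mean of 3.10 normalized counts, and the Sprr2 genes are themselves near-identical copies. The IL-13 receptor gene Il13ra1 had a log2 difference of 0.71 (adjusted p = 0.164) and was called when skin control 2 was left out (1.004 ± 0.21, adjusted p = 0.0330). The eotaxin Ccl24 fell by 1.25 on the log2 scale (SE 0.22, adjusted p = 0.0233). The cytokines themselves were scarce. Il4 and Il13 had means of 7.17 and 12.8 normalized counts in control skin and 12.0 and 13.6 with IMQ and were not called. In the small intestine edgeR called 0 of 9 genes tested, of which 2 had an unadjusted p under 0.05. Il33 was the lower of these with IMQ (log2 -0.48 ± 0.18, adjusted p = 0.335), and Il4ra was higher. Il5, Il13, Il25 and Sprr2b had 0 counts in all 5 libraries, and Il4ra, with the smallest p of the list, had a log2 difference of 0.50 ± 0.14 (adjusted p = 0.143).

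The neighbours of the clusters were read from the annotation as the 2 nearest protein-coding genes on either side. Fam49b, 16800 bases from Gsdmc4, rose 1.07 ± 0.10 on the log2 scale in the skin (adjusted p = 0.00422) and differed by 0.64 ± 0.17 in the small intestine (adjusted p = 0.139), where Gsdmc4 fell. Myc, 1785594 bases on the other side of the cluster, rose 0.75 ± 0.14 in the skin (adjusted p = 0.0302). Asap1, the next gene beyond Fam49b, was called in neither tissue (0.18 ± 0.13 in the skin, and 0.88 ± 0.19 with adjusted p = 0.0682 in the small intestine). Beside the Gsdma cluster, Psmd3 and Gm12355 differed by less than 0.3 on the log2 scale in both tissues and were not called. Csf3, which codes for the neutrophil growth factor G-CSF, had 0 counts in all controls of both tissues and a mean of 64.7 normalized counts in IMQ-treated skin, 23555 bases from Gsdma, and it was not tested because of the zeros. None of the tested neighbours of Gsdmd (Zc3h3, Mafa, Mroh6 and Naprt) or Gsdme (Npy, Osbpl3 and Cycs) was called.

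Genes whose pattern over the 11 libraries was most like that of a member were ranked by Pearson's r of log2(normalized count + 1) among 16321 genes. For Gsdma these were Ly6d (r = 0.998), Prss22, Ephx3, Il1rl2 and Serpinb8 (0.995), and for Gsdmd they were B3gnt3 (0.997), Ifngr2, Slc7a7, Ppm1h and B4galt5 (0.996). These values span libraries of 2 tissues, and likeness within a tissue was not computed. For Gsdmc2 the highest values were lower, 0.887 for Gm13414 and Ccr1, 0.869 for Tcf23 and 0.866 for Mmp13. Other genes with family names were nearly silent. Pjvk, the hearing-related relative, had 0 to 6 counts in the skin and 0 to 4 in the small intestine, Gsdmcl2 had at most 2 counts, and Gsdmcl1 and Gsdmcl-ps had 0 in all 11 libraries.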

How the data were processed

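Stranded mRNA libraries were prepared from total RNA of skin and small intestine and sequenced as paired 100-base reads. According to the sources, the authors trimmed reads (Trimmomatic), aligned them to mm10 with HISAT2 2.1.0 and quantified them with StringTie 2.1.3b. The deposited table holds raw read counts per gene, the FPKM that the authors computed (scaled by transcript length and library size) and the TPM of the authors, which sums to the same total in each library. The tool that wrote counts, and the handling of strand and of reads that match several genes, are not given in the sources used here. Of the 45777 genes, 14694 had no count in any library.

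Groups were read from the sample titles. In each comparison, genes without a zero in any library (a minimum of 1 count) were normalized by relative log expression and tested with edgeR 4.0.16 (quasi-likelihood, Benjamini-Hochberg over all genes, called at adjusted p under 0.05) in R 4.3.3. The counts of each cluster were summed and tested as an added gene of the same table. Standard errors are log2 fold changes over the root of F. The biological coefficient of variation was 0.245 (skin) and 0.215 (small intestine), so the spread between libraries, and for genes of few counts also depth, limits precision. The fit was tested on simulated data. Other settings tried were normalization by TMM or the upper quartile, DESeq2 1.42.0, limma 3.58.1 (voom, log2(FPKM + 0.01), log2(FPKM + 1)), other filters, one fit of all 11 libraries, and each library left out. The fit of other named genes without skin control 2 was added after seeing the data. Floors of 3 counts cover counting error only. Carry-over was measured over genes with at least 20 FPKM in control small intestine and under 0.05 FPKM in the other skin libraries, skin control 2 aside.

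The members and lists were chosen with earlier results of these data known. The genes named are all 9 members, up to 3 called genes per pathway list and tissue with the largest fold change and a mean of at least 50 normalized counts (otherwise the gene with the smallest p), the 2 nearest genes on either side, and the 5 most alike genes for 3 members, except that some genes are not reported here. Other genes named with their values (Ctsg, Il33, Il4ra in the skin, Ccl24, Nlrp6, Nlrc4, Ninj1, Il4, Il13, and Casp1 and Casp4 where they were not called, Nlrc4, Naip2 and Il13ra1 without skin control 2, and single marker genes) were chosen after their values were seen.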

Additional observations from a re-analysis of the deposited data

Results flagged for a closer look

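The response to IMQ differed between the tissues for 3 genes by a test of the difference itself, an interaction term in edgeR with p adjusted over all genes. The difference, small intestine minus skin, was -6.16 on the log2 scale for Gsdmc2, -6.04 for Gsdmc3 and -5.03 for Gsdmc4, and -5.32 for the summed counts of the Gsdmc cluster. For Gsdmc, every IMQ library of the skin was above the controls (log2 2.63) and both IMQ libraries of the small intestine were below them, at 0 counts against 3 to 13, where the filter on zeros left the gene out of the test of the difference, and the difference was not called when that filter was dropped (adjusted p = 0.116).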

How the results depend on the processing

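Of the 9 members, 4 were called in the skin. The number was 1 with limma on log2(FPKM + 1), a scale that compresses low genes, and 1 to 3 with a library left out (1 without IMQ 5, 2 without control 3 or IMQ 4). For the small intestine 1 of 7 was called, against 4 with DESeq2 and 0 to 4 with a library left out. For the interaction it was 3 of 7, and 1 to 3 with a library left out. The Gsdmc cluster sum in the skin ranged from 2.41 to 3.34 with a library left out and was called in 2 of 6 fits (adjusted p = 0.0360 to 0.108). Its value in the small intestine was -2.58 and called with DESeq2 (adjusted p = 0.0115), and ranged from -3.69 to -1.97 with a library left out, called in 2 of 5 fits. In one fit of all 11 libraries, Gsdmc2 in the small intestine was called (adjusted p = 0.0472) and Gsdmc4 was not (0.110).

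Directions turned for values that were not called. The difference of Gsdme in the skin was 0.0071 with TMM, 4.93e-04 with DESeq2, 0.037 with limma-voom and 0.0044 with filterByExpr, and -0.16 to 0.25 with a library left out. With a library left out, the Gsdma cluster sum in the skin ranged from -0.029 to 0.51, Gsdma2 in the small intestine from -0.62 to 0.35, and the interaction of Gsdma2 from -0.090 to 0.93. The cause of these changes was not tested. No paired analysis was possible because the libraries are numbered 1 to 11 and the groups share no replicate number. Gsdma, Gsdma2 and Gsdmc3 have few counts in some groups, where depth limits what is detectable.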
